A study of Homo sapiens with 6 samples.

Results

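This report covers the chemokines, the interleukins and their receptors in HGC-27 gastric cancer cells, 147 genes of the 58735 in the deposited table and of its 19951 protein-coding genes. They were taken by symbol: a protein-coding gene belonged if its name began with CCL, CXCL, CX3CL, CCR, CXCR or ACKR and a digit, or with IL and a digit. Only 17 of the 147 genes reached a mean of 1 FPKM in either group of cells. Of these 17, the chemokine ligands CXCL14 and CCL2 and the interleukin-7 receptor IL7R rose after depletion of ACAT2, and none fell in the test used here. CXCL14 and IL7R reached 1 FPKM in the shACAT2 mean alone, and 0 of the 17 reached it in the shNC mean alone.

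HGC-27, an established line, grew out of an undifferentiated gastric carcinoma, and ACAT2 is the cytosolic acetyl-CoA acetyltransferase, which joins acetyl-CoA units at the start of cholesterol synthesis. The shACAT2 cells had received a pSIH-H1-Puro lentivirus that expresses a short hairpin RNA against ACAT2, and the shNC cells the same vector without that hairpin. Both groups were exposed to virus for 24 h and then kept under puromycin for 7 days, so that each is a selected cell population in culture. The labels do not tell which of the study's ACAT2 hairpins was sequenced. Total RNA of 3 libraries per group was analysed, and nothing in the labels states that the libraries of a group came from separate cultures, so the p-values measure the spread between these libraries, which may be technical. Expression is given as FPKM (fragments per kilobase of gene length, scaled to depth), which allows levels of genes of different length to be compared. Values are listed in the order of the replicate number.

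Chemokines are small secreted proteins that guide migrating leukocytes through G-protein-coupled receptors, and the CC and CXC families are named for the spacing of their first cysteines. Atypical chemokine receptors bind the same ligands without the usual signalling. Interleukins are secreted signals that were first described between leukocytes. Most act through receptor chains that pair with a shared partner and activate JAK kinases and STAT factors, while the IL-1 and IL-17 families signal to NF-kB. Many epithelial and mesenchymal tumour cells also produce CCL2, IL6 or CXCL8 and carry receptor chains such as IL6ST.

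The targeted gene was checked first. The FPKM of ACAT2 was 14.2, 11.7 and 12.7 in the shNC libraries and 6.19, 5.46 and 6.05 in the shACAT2 libraries, and each shACAT2 library lay below each shNC library (log2 fold change −1.01 ± 0.10 SE, adjusted p = 0.0059 by limma). Each library had 14086416 to 16067486 fragments on genes. The library shACAT2-3 stood apart, since 7477 genes had a fragment in it and in no other library, against 416 to 657 in the others, and 228 of 386 olfactory receptor genes had a fragment in it, against 33 to 50. Olfactory receptor genes serve in the nose, and their joint rate in shACAT2-3 was equal to 0.0508 FPKM, against 0.00816 to 0.0146 in the others. The chi-square per gene was 1.77 between shNC-2 and shNC-3 and 14.2 to 54.7 between the remaining pairs of a group. A low value means that 2 libraries differ by little beyond counting error, so shNC-2 and shNC-3 may not be separate samples. The SDs and p-values with n = 3 may then understate the spread of shNC cells. A fit with the mean of shNC-2 and shNC-3 in their place is given below. Of the markers expected of a carcinoma line, KRT18 and KRT19, the keratins of simple epithelium, had no fragment in shNC cells, and EPCAM lay at 0.0230 FPKM there. The shNC means of the epithelial markers MUC1, CLDN7, KRT8 and CLDN4 were 2.09, 1.01, 0.528 and 0.483 FPKM, and that of CDH1 was 0.161 FPKM. Of the mesenchymal-like markers, VIM, the intermediate filament of mesenchymal cells, was at 263 FPKM, ZEB1 at 4.83, FN1 at 1.97 and CDH2 at 0.0249 FPKM. Of 16 leukocyte markers, 2 reached 1 FPKM and none was called (0 at an unadjusted p below 0.05, 0 with limma-voom). Their summed level was 2.91 to 3.70 FPKM in shNC and 3.36 to 3.87 FPKM in shACAT2 libraries.

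To show how much of the family these cells transcribe, the genes were first counted by level. The share at 1 FPKM or more in either group was 11.6%, against 54.1% (10787 genes) of all protein-coding genes. Of the 17 genes, 11 passed in both groups. The remaining 6, CXCL14, IL7R, IL1RAP, IL3RA, IL6R and IL23A, passed through the shACAT2 mean alone. There were 3 genes above 10 FPKM in a group mean, namely IL11RA, IL27RA and CCL2, and the highest value in any library was 25.6 FPKM for IL11RA. With a limit of 0.1 FPKM there would be 52 genes. Of the 130 genes below the limit of 1 FPKM, 25 had no fragment in any library, and 28 had fragments in shACAT2-3 and nowhere else. Those 28 held 114 fragments together, at most 20 on 1 gene. Only 13 of the 130 had at least 60 fragments over all libraries, namely CXCL16, CX3CL1, CXCR4, IL4R, IL9R, IL12RB2, IL15, IL15RA, IL17RD, IL17RE, IL20RB, IL22RA1 and IL32, and the other 117 had fewer.

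**Figure D1:**
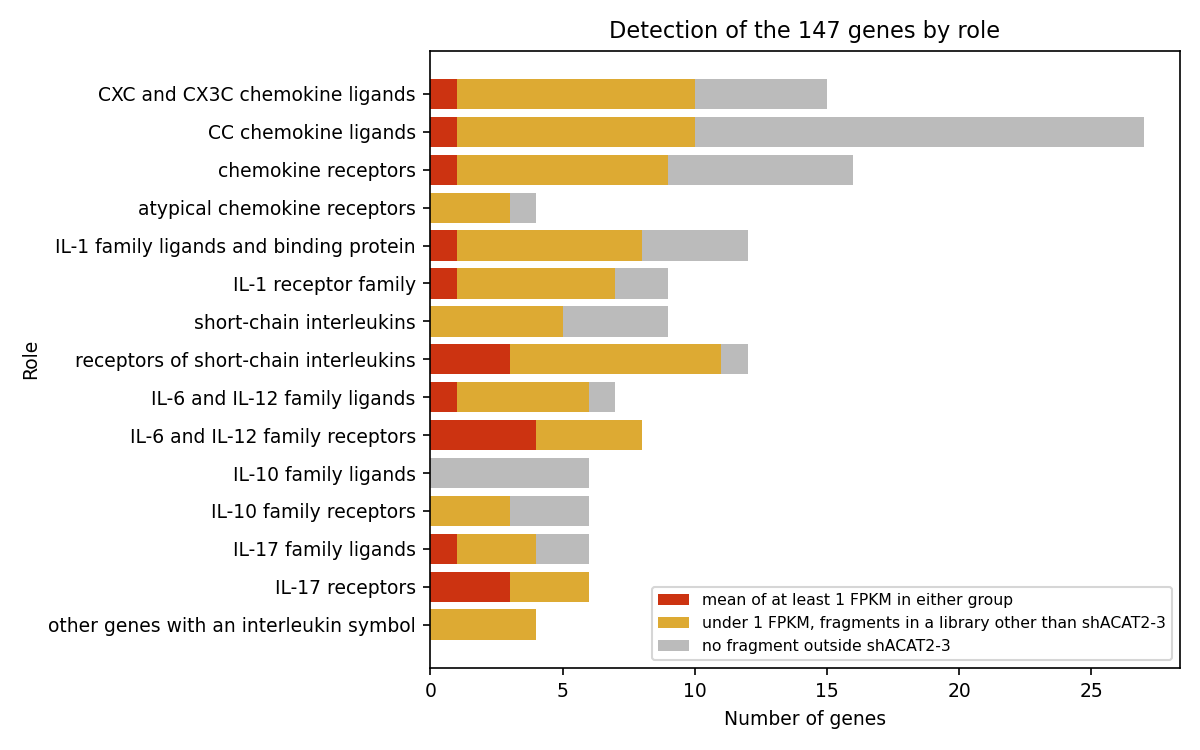
Members of each role group by expression in HGC-27 cells, with the number of genes on the horizontal axis and the role groups on the vertical axis; colours separate genes at 1 FPKM or more in either group, lower genes, and genes with no fragment outside shACAT2-3. Receptor groups hold most of the genes at 1 FPKM or more, and the IL-10 family ligands and atypical chemokine receptors hold none.

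The genes detected were also counted by library. A fragment was found for 64, 63 and 67 of the 147 genes in the shNC libraries and for 58, 60 and 112 in the shACAT2 libraries. Thus the number in shACAT2-3 lay above all others, while shACAT2-1 and shACAT2-2 lay below the shNC libraries. The genes of this family held 5364, 5638 and 5843 fragments in the shNC libraries and 7057, 7550 and 7161 in the shACAT2 libraries. CXCL14, CCL2 and IL7R together made up 3.92% to 4.47% of these in shNC cells and 13.6% to 16.4% in shACAT2 cells. The groups did not overlap in either number. These 3 genes are those called higher below in the same libraries, so their larger share follows from how they were chosen. The fragments of the family include theirs.

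Differences between the groups were tested with limma on log2(FPKM + 1), with p-values adjusted over the 13832 genes whose mean reached 1 FPKM in shNC or shACAT2 cells. On this scale a fold change understates the change of low genes. At an adjusted p below 0.05, 3 of the 17 genes were higher in shACAT2 cells and 0 were lower, where 3.3% of all genes tested were called higher, 1.81% lower and 5.1% in either direction. CXCL14 and IL7R, both called, are among the 6 genes that passed the limit through the shACAT2 mean alone. Since 0 genes passed through the shNC mean alone, the limit let in genes of the family on the higher side only. For the count of 0 lower, 8 of the 17 genes had an unadjusted p below 0.05 in either direction, as did 3253 or 23.5% of all genes tested, and limma-voom, which tested 31 genes of the family, called the same number: 3 higher and 0 lower, against 3.88% higher, 3.86% lower and 7.74% in either direction of all genes. The study's cut-offs, a log2 fold change beyond 1 either way and an unadjusted p below 0.05, were also applied to these limma values. The same 3 genes were called, where 0.983% of all genes tested passed higher, 0.513% lower and 1.5% in either direction. These are limma calls on log2(FPKM + 1) and not the calls of the study itself. When the replicate number entered as a block, 6 genes were called, 5 higher and 1 lower, against 7.67%, 4.81% and together 12.5% of all genes. Those added were IL11RA and IL13RA1, both higher, and IL18BP, lower. Of the 17 log2 fold changes 13 were positive, with a median of 0.32, against 7234 of 13832 genes and a median of 0.02 over all genes tested. The 6 genes that passed the limit through the shACAT2 mean alone had to lie higher there. The counts of calls, of signs and of groups without overlap are therefore a description. In 7 genes every shACAT2 library lay above every shNC library and in 1 gene below, which held for 16.2% and 14.5% of all genes tested, 30.7% together. In bulk RNA, fewer cells that express a gene and less of its RNA per cell cannot be told apart.

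**Figure D2:**
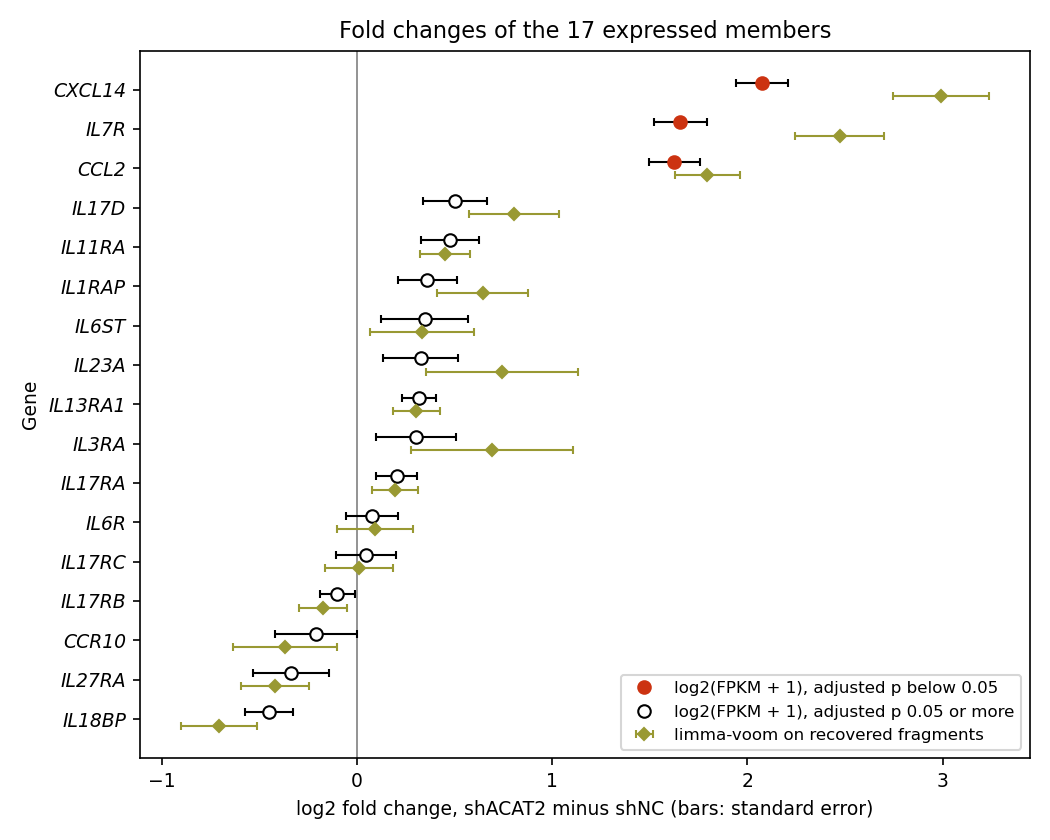
Log2 fold change of the 17 expressed genes, shACAT2 minus shNC on the log2(FPKM + 1) scale, with bars of 1 standard error and filled circles for genes at a limma adjusted p below 0.05; diamonds give the limma-voom fold change on fragments. The circles of CXCL14, IL7R and CCL2 lie between 1.62 and 2.08, and those of the other 14 lie between −0.45 and 0.50.

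CXCL14, a CXC chemokine made by normal epithelia and fibroblasts, had the largest fold change of the 17. The gene (ENSG00000145824) is on the minus strand of chromosome 5, from 135570679 to 135579279 on GRCh38. Its FPKM was 0.926, 0.593 and 0.822 in the shNC libraries and 7.17, 5.45 and 6.95 in the shACAT2 libraries. The lowest shACAT2 value was thus several times the highest shNC value. The mean rose to 6.52 ± 0.935 FPKM from 0.781 ± 0.170 FPKM (n = 3, SD), a ratio of 8.36. The log2 fold change was 2.08 ± 0.13 (SE; adjusted p = 0.0020 by limma). These values rest on 28, 19 and 28 fragments in shNC cells and 215, 179 and 206 in shACAT2 cells. On the fragments themselves, limma-voom gave a log2 fold change of 2.99. An exact permutation test of the FPKM gave p = 0.1 (two-sided), the smallest p that 3 libraries against 3 allow, and the same p was found for CCL2, IL7R and ACAT2. The exons of CXCL14 share 95 bases with AC034206.1 and 78 bases with SLC25A48 on the opposite strand. Since the sources used here do not state the strand setting of the counting, fragments in these bases cannot be assigned with certainty.

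CCL2, also known as MCP-1, attracts monocytes and had the second highest mean level of the family in shACAT2 cells, after IL11RA. It lies on chromosome 17 from 34255218 to 34257203 on the plus strand (ENSG00000108691). The FPKM of CCL2 was 4.08, 3.82 and 3.80 in the shNC libraries and 15.7, 11.5 and 15.5 in the shACAT2 libraries. The shNC libraries lay close together, and every shACAT2 library was far above them. The mean rose to 14.2 ± 2.39 FPKM from 3.90 ± 0.157 FPKM (n = 3, SD), a ratio of 3.65 and a log2 fold change of 1.62 ± 0.13 (SE; adjusted p = 0.0035 by limma). It had 123 to 130 fragments in the shNC and 379 to 473 in the shACAT2 libraries, and its exons overlap no other annotated gene. Within the same chemokine cluster of chromosome 17, CCL7, the nearest, and CCL8, 63.8 kb away, both had no fragment in any library. CCL11 at 30.5 kb and CCL1 at 105 kb had 1 fragment each over all 6 libraries, and CCL13 at 101 kb had 5. None of these neighbours reached 1 FPKM.

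IL7R is the alpha chain of the receptors for IL-7 and TSLP and is best known from lymphocytes. It lies on chromosome 5 from 35852695 to 35879603 on the plus strand (ENSG00000168685). Its FPKM was 0.669, 0.804 and 0.986 in the shNC libraries and 4.01, 4.67 and 5.58 in the shACAT2 libraries. The groups did not overlap. The mean increased from 0.820 ± 0.159 to 4.75 ± 0.786 FPKM (n = 3, SD), a ratio of 5.80 and a log2 fold change of 1.66 ± 0.14 (SE; adjusted p = 0.0035 by limma). On 62 to 103 fragments in the shNC and 369 to 507 in the shACAT2 libraries, limma-voom gave a log2 fold change of 2.47. Of the leukocyte markers that T cells carry beside IL7R, PTPRC, CD3D and CD3E had at most 0.0727, 0.215 and 0.187 FPKM in any library, the highest each time in shACAT2-3. The exons of IL7R overlap no other annotated gene.

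**Figure D3:**
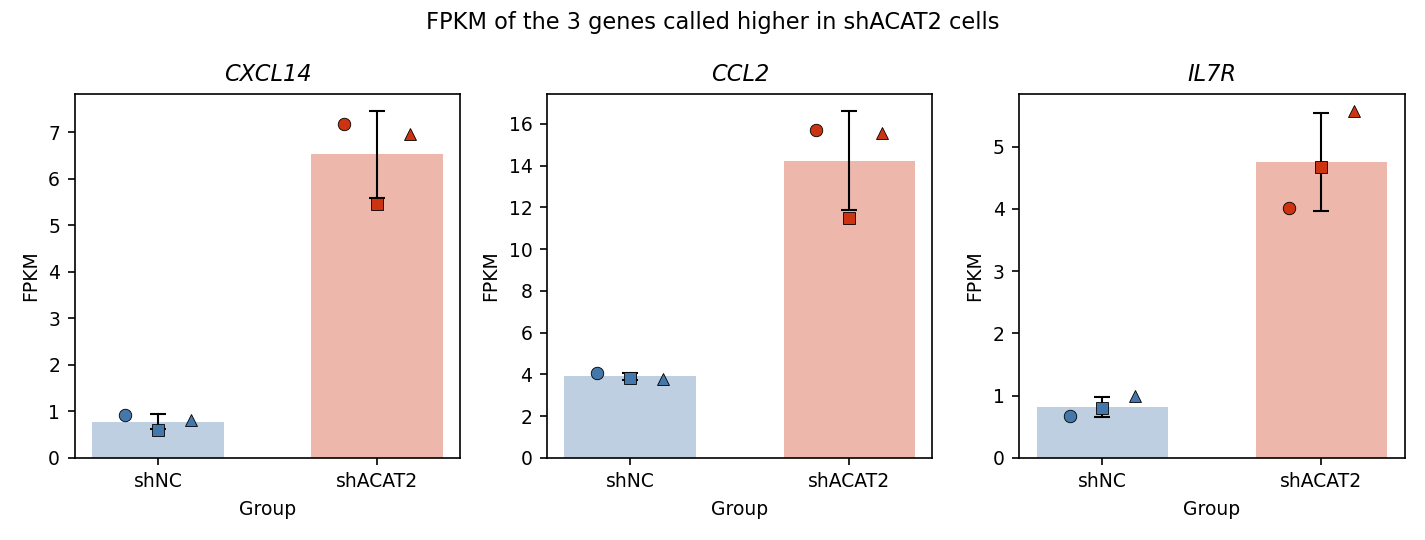
FPKM of CXCL14, CCL2 and IL7R in each library (points, 1 shape per replicate number), with the group mean (column) and SD (error bar) for shNC and shACAT2 cells, n = 3 libraries each. In all 3 genes the shACAT2 libraries lie above the shNC libraries, at 5.45 to 7.17, 11.5 to 15.7 and 4.01 to 5.58 FPKM.

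The rise of the 3 genes was seen under each of the 15 alternatives run for each of them. The log2 fold change lay between 2.00 and 2.99 for CXCL14, between 1.55 and 1.83 for CCL2 and between 1.55 and 2.47 for IL7R. The largest limma adjusted p was 0.0279, 0.0332 and 0.0308. Without shACAT2-3, the library with the widest scatter of low fragments, they were 2.03, 1.56 and 1.55 on the log2 scale (adjusted p = 0.0063, 0.0079 and 0.0079 by limma). The joint rate of olfactory receptor genes in that library, 0.0508 FPKM, is below the 6.95, 15.5 and 5.58 FPKM of the 3 genes in it. Single genes can lie above that rate. CCL25, with 9 fragments in shACAT2-3 and none elsewhere, reached 0.606 FPKM there.

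The sequences upstream of the RefSeq starts of CXCL14 and IL7R are shown, each with a match to a different promoter element. They are taken from RefSeq promoters on GRCh38.p14, where 14 of the 17 genes had an entry. CCL2, IL17RA and CCR10 had none, so their promoters were not searched. The first is CXCL14 at chr5:135579065-135579094 on the minus strand, where the capitals mark an AP-1 element (TGANTCA) 92 to 86 bases before the RefSeq start. The second is IL7R at chr5:35856850-35856879 on the plus strand, where the capitals mark a TATA box (TATAAA) 29 to 24 bases before the RefSeq start. The RefSeq starts lie 288 and 4196 bases from the gene starts of the deposited table.
CXCL14: agaaatctcagTGAGTCAccgagtggttct
IL7R: tggttagataagTATAAAgccctagatcta

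Motifs were searched on both strands in the 250 bases before each start. TATAAA was found in 11.1% of the 27195 promoters and in 3 of the 14 genes, IL7R, IL3RA and IL23A. TGANTCA was found in 6.55% of all promoters and in 2 of the 14, CXCL14 and IL23A. GGAATG, the core element of TEAD factors, was found in 11.9% of all promoters and in IL17D and IL17RB. TTCNNNGAA, the element of STAT factors, was found in 6.79% and in IL17D and IL3RA. An NF-kB element was found in 9.60% of all promoters and in 4 of the 14, IL17D, IL23A, IL27RA and IL6ST. A match is a description of the letters and not of binding.

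The remaining chemokine ligands were scarce. Of 15 CXC and CX3C ligands, 11 had at most 3 fragments in every library, and of 27 CC ligands, 18 did. CXCL8, the neutrophil attractant IL-8, had 1 fragment in shNC-1, 1 in shACAT2-3 and 0 in the others, and CXCL1 had 0 in all libraries. A count of 0 allows up to 3 fragments, which on a gene of 1 kb is 0.174 to 0.200 FPKM, and this covers counting error only. CXCL16, a transmembrane chemokine, had means of 0.906 and 0.913 FPKM in shNC and shACAT2 cells and was the gene closest below the limit. CXCL12, the ligand of CXCR4, had 1 fragment in shNC-1 and 7 in shACAT2-3.

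Among the 16 chemokine receptors, only CCR10, the receptor of CCL27 and CCL28, passed 1 FPKM. Its FPKM was 2.57, 2.73 and 1.97 in the shNC and 3.02, 1.70 and 1.35 in the shACAT2 libraries. The groups overlapped (log2 fold change −0.21, limma adjusted p = 0.597). CCR10 shares 439 exonic bases with AC100793.2 and 381 with CNTNAP1, both on the opposite strand. CCR2, the receptor of CCL2, had 1 fragment in all, in shACAT2-3. CXCR4 lay below the limit, at 0.375 FPKM in shNC cells and 0.272 FPKM in shACAT2 cells. CCR1, CCR3, CCR8 and CXCR5 had no fragment in any library. Of the 4 atypical receptors, none had more than 9 fragments in a library. ACKR3, the scavenger of CXCL12, had 3, 4 and 2 fragments in shNC and 9, 5 and 7 in shACAT2 cells, which is too few for a test here.

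Receptors of the IL-6 and IL-12 family were the most abundant group, with a summed level of 34.8 to 36.8 FPKM in the shNC and 37.0 to 45.8 FPKM in the shACAT2 libraries. IL11RA, the alpha chain of the IL-11 receptor, was at 16.3, 14.4 and 14.5 FPKM in the shNC libraries and at 25.6, 21.6 and 17.5 FPKM in the shACAT2 libraries. All shACAT2 libraries were above all shNC libraries, yet they differed widely among themselves. The log2 fold change was 0.47 ± 0.15 (SE; adjusted p = 0.118 by limma). IL11RA passed with the block (limma adjusted p = 0.0467) and without shACAT2-3, where the log2 fold change was 0.61 (limma adjusted p = 0.0477). IL11RA shares exonic bases with GALT (334) and with AL162231.3 (410) on its own strand. IL27RA, a chain of the IL-27 receptor, was at 14.2, 12.2 and 11.9 FPKM in shNC cells and 12.9, 10.2 and 7.20 FPKM in shACAT2 cells (log2 fold change −0.34, limma adjusted p = 0.341). Its groups overlapped, and the lowest value was that of shACAT2-3.

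IL6ST, or gp130, is the signalling chain shared by the receptors of IL-6, IL-11 and LIF. Its FPKM was 4.94, 7.37 and 7.25 in the shNC libraries and 5.95, 9.51 and 10.5 in the shACAT2 libraries. The groups overlapped, and replicate 1 was the lowest in both (log2 fold change 0.35, limma adjusted p = 0.398, or 0.0539 with the block). IL6ST shares 797 exonic bases with AC008914.1 on the opposite strand. IL6R was close to 1 FPKM in all libraries (0.854 to 1.21) and differed by a log2 fold change of 0.08 (limma adjusted p = 0.777). Their ligands were low. IL6 had 1, 0 and 4 fragments in the shNC and 0, 1 and 18 in the shACAT2 libraries, so that nearly all lay in shACAT2-3. IL11 had 20 fragments in shNC and 27 in shACAT2 cells over 3 libraries each. IL23A, the p19 subunit of IL-23, was the ligand of this group above the limit, at 0.991, 0.468 and 0.391 FPKM in shNC cells and 1.22, 1.01 and 0.786 FPKM in shACAT2 cells (log2 fold change 0.32, limma adjusted p = 0.357). It rests on 8 to 22 fragments per library.

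Receptors of the short-chain interleukins held 3 genes above the limit, IL7R among them. IL13RA1, which pairs with IL4R to bind IL-13 and IL-4, was at 6.70, 6.29 and 6.46 FPKM in the shNC libraries and at 8.32, 7.82 and 8.83 FPKM in the shACAT2 libraries. The groups did not overlap (log2 fold change 0.32 ± 0.09 SE). The limma adjusted p was 0.0891, and 0.0467 with the block. IL4R lay just below the limit, and all its shACAT2 values were below all its shNC values, with means of 0.854 and 0.604 FPKM. IL3RA, the alpha chain for IL-3, had 10 to 34 fragments per library and overlapping groups (log2 fold change 0.30, limma adjusted p = 0.423).

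The partners that IL7R needs for signalling were near 0. IL2RG, the common gamma chain that joins it in the IL-7 receptor, had 1 fragment in shNC-3 and 1 in shACAT2-3. CRLF2, its partner in the TSLP receptor, had 1 fragment, in shACAT2-3. Their ligands were also scarce. IL7 had 3, 0 and 6 fragments in the shNC and 1, 2 and 9 in the shACAT2 libraries, and TSLP had 8 and 1 fragments in all shNC and all shACAT2 libraries. IL2RA and IL10RA had 0 fragments in 5 libraries and 20 and 13 in shACAT2-3. Of the 9 short-chain interleukins, 7 had at most 3 fragments in every library, IL2 and IL3 with 0 in all.

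The IL-17 receptors had summed levels of 12.2 to 14.6 FPKM in shNC and 12.7 to 14.9 FPKM in shACAT2 libraries. IL17RA is the chain common to most IL-17 receptors, and its FPKM was 4.82, 4.07 and 3.83 in shNC and 5.17, 5.21 and 4.66 in shACAT2 cells (log2 fold change 0.20, limma adjusted p = 0.293). IL17RB, the chain for IL-25, was at 4.85 to 5.55 FPKM and 4.54 to 5.01 FPKM (log2 fold change −0.10, limma adjusted p = 0.539). It shares 99 exonic bases with AC012467.2 on the opposite strand. IL17RC, the partner of IL17RA for IL-17A and IL-17F, was at 2.52 to 3.15 FPKM and 2.45 to 3.96 FPKM (log2 fold change 0.05, limma adjusted p = 0.886), and its sign changed with upper-quartile scaling and without shACAT2-1 or shNC-3. In all 3 the groups overlapped. IL17D was the IL-17 family ligand above the limit, at 1.57, 0.964 and 0.854 FPKM in shNC cells and 2.36, 1.79 and 1.82 FPKM in shACAT2 cells. Its groups did not overlap (log2 fold change 0.50 ± 0.16 SE, adjusted p = 0.130 by limma, or 0.0502 with the block), and 1296 bases of its exons, or 39.0%, lie opposite to AL161772.1. IL17A had no fragment in any library.

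In the IL-1 family, IL18BP, the secreted inhibitor of IL-18, had lower values in shACAT2 cells. It was at 2.55, 3.17 and 2.94 FPKM in the shNC libraries and at 1.55, 1.81 and 2.19 FPKM in the shACAT2 libraries. It was the 1 gene of the 17 with all shACAT2 values below all shNC values (log2 fold change −0.45 ± 0.12 SE). It did not pass the test (limma adjusted p = 0.0886), but did with the block (limma adjusted p = 0.0471), and 675 bases of its exons lie opposite to NUMA1. Its target IL18 had 1 fragment in the shNC and 12 in the shACAT2 libraries together, 9 of them in shACAT2-3. IL1RAP, the accessory chain of the IL-1 and IL-33 receptors, was at 0.701, 0.838 and 0.813 FPKM in shNC cells and 0.952, 1.41 and 1.54 FPKM in shACAT2 cells, without overlap (log2 fold change 0.36, limma adjusted p = 0.209). IL1RAP shares 535 exonic bases with AC108747.1 on its own strand. Its partner IL1R1 had at most 4 fragments in a library. IL1B had 2, 1 and 4 fragments in shNC and 0, 3 and 14 in shACAT2 cells, and IL33 had 0 in all.

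The IL-10 family was low. Of its 6 ligands 4 had no fragment in any library, and all fragments of the other 2 lay in shACAT2-3. Of its 6 receptors none reached 1 FPKM. Among the other genes with an interleukin symbol, IL16 had 1, 3 and 1 fragments in shNC and 12, 4 and 17 in shACAT2 cells, and was below the limit.

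**Figure D4:**
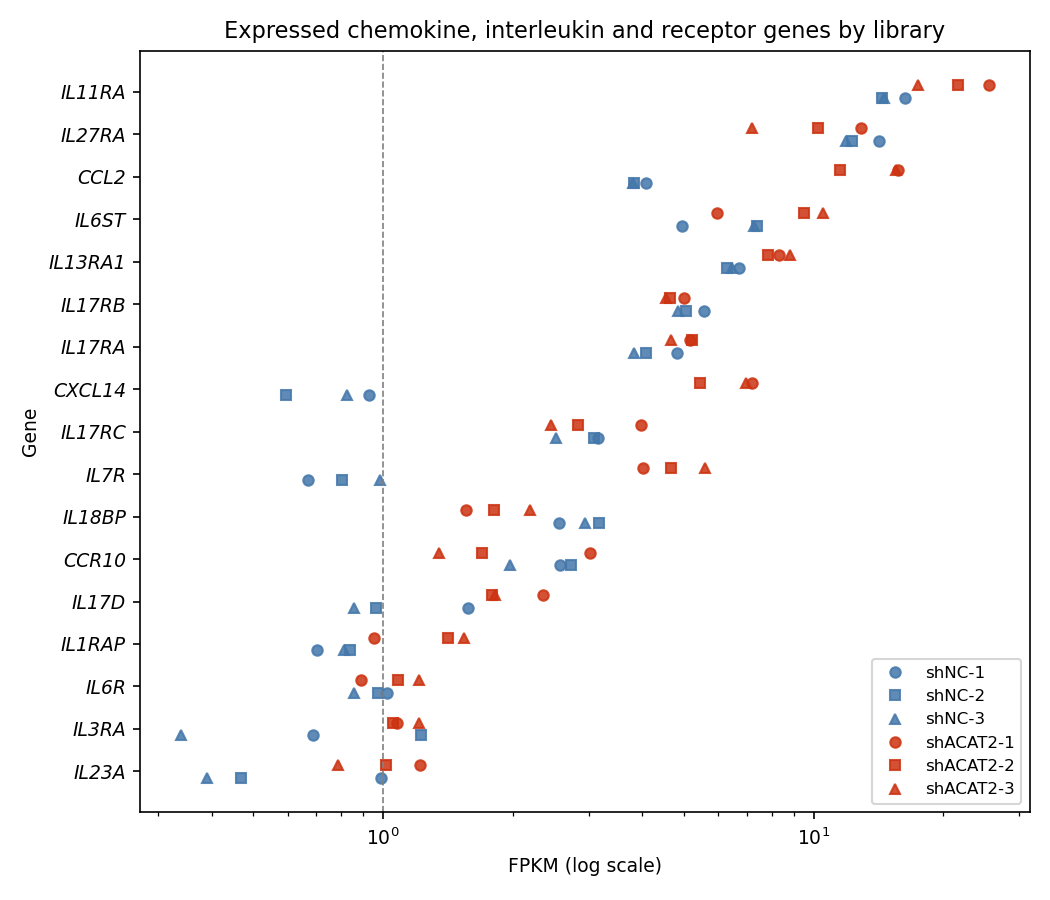
FPKM of the 17 expressed genes in each of the 3 shNC and 3 shACAT2 libraries, on a logarithmic horizontal axis with genes on the vertical axis, 1 shape per replicate number and a dashed line at 1 FPKM. IL11RA and IL27RA lie highest in shNC cells, and CCL2, CXCL14 and IL7R show the widest gaps between the groups.

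The genes that act beside these receptors were counted from hand-written lists. Of 24 genes of JAK-STAT signalling and its inhibitors, 19 were tested and 0 were called by limma (5 at an unadjusted p below 0.05, where 23.5% of all genes tested passed, 0 with limma-voom and 1 with the block), with a median log2 fold change of −0.01. SOCS1, a feedback inhibitor of JAK kinases, had means of 0.598 FPKM in shNC cells and 1.37 FPKM in shACAT2 cells (limma adjusted p = 0.111). JAK2 had means of 2.50 and 3.85 FPKM (limma adjusted p = 0.150). Of 30 genes of IL-1 receptor and NF-kB signalling, 27 were tested and 0 were called by limma (2 at an unadjusted p below 0.05, against the same 23.5%, 1 with limma-voom and 0 with the block), with a median of 0.04. TNFAIP3, the NF-kB inhibitor A20, had means of 0.498 and 1.15 FPKM (log2 fold change 0.52, limma adjusted p = 0.0748). Of 30 cytokines and receptors with other symbols, 8 were tested, 1 was called higher and 0 lower, with a median of −0.16. Of all genes tested, 3.3% were called higher and 1.81% lower. With the block 2 genes of this list were called, against 12.5% of all genes in either direction. CSF1, the growth factor of macrophages, rose from 4.21 ± 0.537 to 7.24 ± 1.11 FPKM (SD, n = 3 each; log2 fold change 0.66, limma adjusted p = 0.0392). CSF1 was not called with no filter, with the mean of shNC-2 and shNC-3 in their place, or when shACAT2-2 or any of the shNC libraries was left out. The CSF1 receptor, CSF1R, was at most 0.129 FPKM in any library. For comparison, the median over all genes tested was 0.02, and 5.1% were called by limma in either direction. With limma-voom 7.74% and with the block 12.5% of all genes were called.

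Some cell markers differed between the groups. Of 7 fibroblast markers, all were tested and 3, COL1A1, DCN and LUM, were called higher and 0 lower, where 3.3% of all genes tested were called higher, with summed levels of 310 to 345 FPKM in the shNC and 447 to 542 FPKM in the shACAT2 libraries. With limma-voom 5 were called in either direction and with the block 6, against 7.74% and 12.5% of all genes. PDGFRA of the same list lay lower in each shACAT2 library, with 2.26, 2.62 and 2.50 FPKM against 1.35, 1.70 and 1.64 FPKM (log2 fold change −0.43, limma adjusted p = 0.0701). Of 8 epithelial markers, 2 were tested and MUC1 was called higher, with summed levels of 4.07 to 4.61 FPKM and 6.15 to 6.72 FPKM. With limma-voom 2 were called in either direction and with the block 1, against the same 7.74% and 12.5% of all genes. CDH1, the gene of E-cadherin, had means below the limit, yet each shACAT2 library lay above each shNC library. Its shNC mean of 0.161 FPKM rose to 0.863 FPKM after depletion, on 48 and 249 fragments. Of 4 mesenchymal-like markers, 3 were tested and 0 were called (1 with limma-voom, 1 with the block, against the same shares of all genes). The shNC mean of VIM, 263 FPKM, rose to 406 FPKM without overlap (log2 fold change 0.62, limma adjusted p = 0.0634). No endothelial marker of 6 reached 1 FPKM. Whether the change in these markers has a part in the rise of CXCL14, CCL2 and IL7R was not tested.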

How the data were processed

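Total RNA of HGC-27 cells was sequenced, with 3 shNC and 3 shACAT2 libraries. The authors deposited FPKM values per gene. According to the submitters' processing notes, HISAT2 2.0.5, featureCounts 1.5.0-p3, DESeq2 1.20.0 and hg38 were used, and the strand setting is not given in the sources used here. The lengths of all 58735 genes match their exons in GENCODE release 29. Fragments were recovered as FPKM times length over the step of each library, and 100% were whole (tolerance 0.05). No per-sample column was left unused.

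Groups were compared with limma 3.58.1 (R 4.3.3, with trend, two-sided) on log2(FPKM + 1) of the genes whose mean reached 1 FPKM in shNC or shACAT2 cells, with Benjamini-Hochberg adjustment over all of them. The fit was also tried on simulated counts with the same dispersion for every gene and independent libraries. In these data shNC-2 and shNC-3 may not be separate, so that trial does not show how reliable the calls are. Python 3.11.15 with pandas 2.3.3 and numpy 2.4.6 was used for the other steps. Samples with the same number deviated together (correlations 0.445, 0.126 and 0.171, all above 0.1), so the numbers in the labels were taken to pair the samples, and the replicate block was fitted beside the unblocked design. Of the unlike numbers, the pair shNC-2 and shACAT2-3 gave 0.198 and the pair shNC-3 and shACAT2-2 gave 0.141. Each exceeds the value of that shACAT2 library with its own number. The correlations thus match replicate 1 but do not settle how replicates 2 and 3 pair. The calls with the block rest on that pairing.

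The alternatives were the block, limma-voom on fragments (at least 10 in 3 libraries), upper-quartile and total scaling, other filters, a pseudocount of 0.1, shNC-2 and shNC-3 averaged, and each library left out. Named were all genes above the limit, those below it with at least 60 fragments or as examples of a role group, and the list genes with the smallest p. A few others (CXCL8, CXCL12, ACKR3, IL16, the partners of IL7R and CSF1R among them) were named after their values were seen. Some genes that this rule names are not reported here. The members and lists were chosen with earlier results of these data known.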

Additional observations from a re-analysis of the deposited data

How the results depend on the processing

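With the replicate number as a block, the genes of the family called were 6 instead of 3, with 5 higher and 1 lower instead of 3 and 0. With 1 library left out in turn they were 3 to 4, with 3 to 4 higher and 0 lower. The log2 fold changes of CXCL14 and IL7R ranged from 2.00 to 2.18 and from 1.55 to 1.75 when 1 library was left out. With 0.1 FPKM as the limit 52 genes were expressed instead of 17, with a minimum of 10 fragments in 3 libraries 31, and 16 to 18 without any 1 library. Over all genes the 706 calls became 1261 with limma-voom, 209 with no filter, 1727 with the block and 83 with the mean of shNC-2 and shNC-3. Leaving out libraries singly gave 63 (no shNC-3) to 862. The JAK-STAT list went from 0 calls to 1 under a minimum of 10 fragments in every library and to 1 with the block, and was 0 to 1 with 1 library left out. The IL-1 receptor and NF-kB list went from 0 to 1 with that filter and to 1 with limma-voom, and stayed at 0 with 1 library left out. The list of other cytokines went from 1 to 2 with limma-voom, the block, upper-quartile or total scaling, and to 0 with no filter or the average, and was 0 to 1 with 1 library left out. The log2 fold change of IL17RC was −0.00025 with upper-quartile scaling, −0.10 without shACAT2-1 and −0.03 without shNC-3, with 0.16 as its highest value when 1 library was left out. IL11RA also passed without shACAT2-3 (limma adjusted p = 0.0477). Apart from IL11RA, IL13RA1 and IL18BP, the block changed no call of a gene of the family. Of all called genes, 64.6% were higher, against 54.4% with upper-quartile scaling, 55.3% with total scaling and 50.1% with limma-voom. The cause of these shifts was not tested. Genes with few fragments are limited by depth, and those with fragments in shACAT2-3 alone were seen in 1 library only.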
